A study of Mus musculus with 11 samples.

Results

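A set of 8 genes that start or restrain blood clotting at cell surfaces was followed in cultured mouse bone marrow stroma: the tissue factor gene F3, the inhibitor genes Tfpi and Tfpi2, the receptor genes Thbd and Procr of the thrombin and protein C system, the protease-activated receptor genes F2r and F2rl1, and F13a1, the gene of the factor XIII A chain. They were taken by gene name from the deposited tables of both knockouts, and 8 of 8 were in both, out of 20348 genes in all. The RNA came from primary mesenchymal stromal cells of C57/BL6 mouse bone marrow, in 4 wild type libraries, 3 libraries with a knockout of ANXA2 and 4 with a knockout of ANXA5, all untreated. The labels do not say whether each library came from a separate animal or culture, how either knockout was made or whether Cre drove it, and p-values here therefore reflect only how far these libraries spread, which may be technical. The labels give neither the age of the mice nor the culture passage.

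Clotting at a cell surface starts when tissue factor binds factor VIIa and activates factor X, and it ends in thrombin, which cleaves fibrinogen and also signals through protease-activated receptors. Tissue factor pathway inhibitor blocks the first step, and thrombomodulin with the endothelial protein C receptor turns thrombin towards the activation of protein C, which shuts the cascade down. These complexes assemble on exposed phosphatidylserine, the lipid that annexin A5 binds and can shield, which makes annexin A5 a surface anticoagulant. Annexin A2 is best known at the cell surface as a binding partner of S100A10 that holds plasminogen and its activator.

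The libraries held between 23304225 and 35654634 reads each. Anxa2 was at 28.6% of the wild type mean in the ANXA2 knockout libraries, and Anxa5 at 9.24% in the ANXA5 knockout libraries. All 14 stromal markers, among them Pdgfra, Lepr, Cxcl12 and Col3a1, were read in every library, but so were all 12 endothelial, 12 macrophage and 8 megakaryocyte markers looked for. In bulk RNA, fewer cells of a type and less RNA per cell cannot be told apart. Xist, the RNA that coats the inactive X chromosome, was at 1829 and 1997 normalised reads in wild type libraries 1 and 2, near 1 in wild type libraries 3 and 4 (1.16 and 0.959), from 203 to 652 in the ANXA2 knockout and from 2.07 to 1676 in the ANXA5 knockout. A normalised read is a read count divided by the size factor of its library, and wild type was scaled once with each knockout, so its values differ between the 2 tables. ANXA2 knockout libraries are called 1, 3 and 4 after their columns, whose numbers are not those of the sample titles.

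Upstream sequence is shown for 3 of the 4 members whose window held a match to the AP-1 motif, the starter F3, the receptor Procr and the inhibitor Tfpi2. RefSeq on GRCm38.p6 gave 250 bases before the start for 6 of the 8 members. Thbd and F2rl1 were not matched. The F3 window lies on the plus strand of chromosome 3 (chr3:121723287-121723536), the Procr window on the plus strand of chromosome 2 (chr2:155750967-155751216), and the window of the third Tfpi2 start on the minus strand of chromosome 6 (chr6:3968376-3968625). Each is written 5′ to 3′, with matches on either strand in capitals.
F3: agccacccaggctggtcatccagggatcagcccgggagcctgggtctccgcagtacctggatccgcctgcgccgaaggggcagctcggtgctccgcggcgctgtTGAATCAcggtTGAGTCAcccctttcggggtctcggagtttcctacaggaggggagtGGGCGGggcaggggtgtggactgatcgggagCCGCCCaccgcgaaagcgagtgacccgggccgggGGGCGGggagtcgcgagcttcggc
Procr: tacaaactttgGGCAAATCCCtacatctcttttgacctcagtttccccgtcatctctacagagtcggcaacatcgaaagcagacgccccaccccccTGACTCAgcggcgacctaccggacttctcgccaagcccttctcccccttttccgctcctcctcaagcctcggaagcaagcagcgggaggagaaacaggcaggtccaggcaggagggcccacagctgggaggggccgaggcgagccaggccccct
Tfpi2: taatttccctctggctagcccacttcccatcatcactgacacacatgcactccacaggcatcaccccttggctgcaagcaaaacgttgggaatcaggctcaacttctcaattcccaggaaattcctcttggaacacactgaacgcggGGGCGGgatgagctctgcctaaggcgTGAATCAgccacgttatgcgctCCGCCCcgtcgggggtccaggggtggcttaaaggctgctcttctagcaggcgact

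The motif searched for AP-1, the Fos and Jun factor, was TGANTCA. F3 held it at 146 and at 135 bases before its start, Procr at 154 and Tfpi2 at 77, and F2r held it as well, so that 4 of 6 members with a window had a match, at 4 of their 10 starts. Over all 32851 windows of that length the share was 6.75%. The Sp1 motif GGGCGG was in the windows of F3, Tfpi, Tfpi2 and F2r (32.7% of all windows), an NF-kB motif in that of Procr (4.11%), and the TATA box letters TATAAA in that of Tfpi (12.4%). The last match lay on the reverse strand, as TTTATA, 127 bases before start 1 of Tfpi, and its other start had none. No 2 of these patterns overlapped in the members' windows. A match is a description of the letters and not a bound site.

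Scaled to exon length and library size (RPKM, reads per kilobase of exon and per unit of library size), F13a1 and the receptor genes Thbd and Procr lay above the starter F3, and Tfpi2 and Tfpi below it. F13a1, whose product cross-links fibrin once thrombin has activated it, was the highest member in wild type at 121 ± 16.8 RPKM (SD, n = 4), above 98.4% of genes. Thbd, the thrombin receptor thrombomodulin, stood at 81.7 ± 15.7 RPKM and Procr, the receptor that presents protein C to it, at 65.5 ± 17.7 RPKM. F3 followed at 33.8 ± 4.67 RPKM and F2r, the thrombin receptor PAR1, at 21.4 ± 1.09 RPKM. The lower end of the set was made up of both inhibitors and PAR2. Tfpi2, a Kunitz-type inhibitor found in the matrix, was at 7.83 ± 1.81 RPKM, and Tfpi, the direct inhibitor of the tissue factor complex, at 4.26 ± 1.37 RPKM. F2rl1, the PAR2 gene, was lowest at 1.80 ± 0.0194 RPKM.

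**Figure D1:**
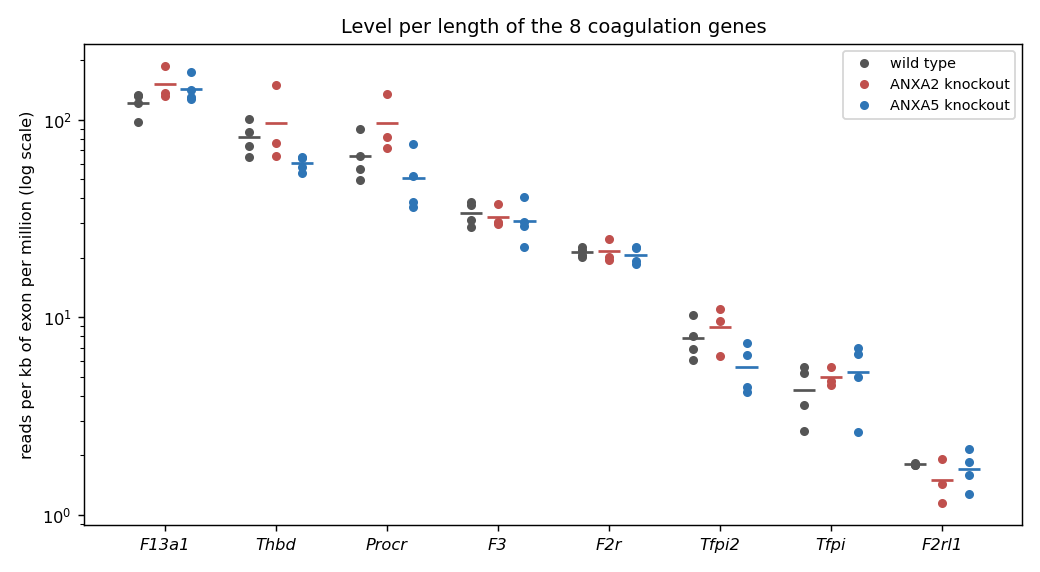
Level of each gene per exon length in RPKM (log axis) in the 11 libraries, coloured by genotype, with the mean of each genotype as a bar. F13a1 lies at the top and F2rl1 at the bottom in all 3 genotypes.

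By their means the 8 genes had the same order in all 3 genotypes. Not every step in that order was separated. Thbd and Procr overlapped in all 3 genotypes, and Thbd was the higher of the 2 in 8 of 11 libraries. F13a1 overlapped Thbd in wild type and in the ANXA2 knockout, although it was the higher in 11 of 11 libraries. In the ANXA5 knockout Procr also overlapped F3, and Tfpi2 overlapped Tfpi. There F13a1 stood at 144 ± 21.8 RPKM and Thbd at 60.1 ± 5.02 RPKM (SD, n = 4), without overlap.

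**Figure D2:**
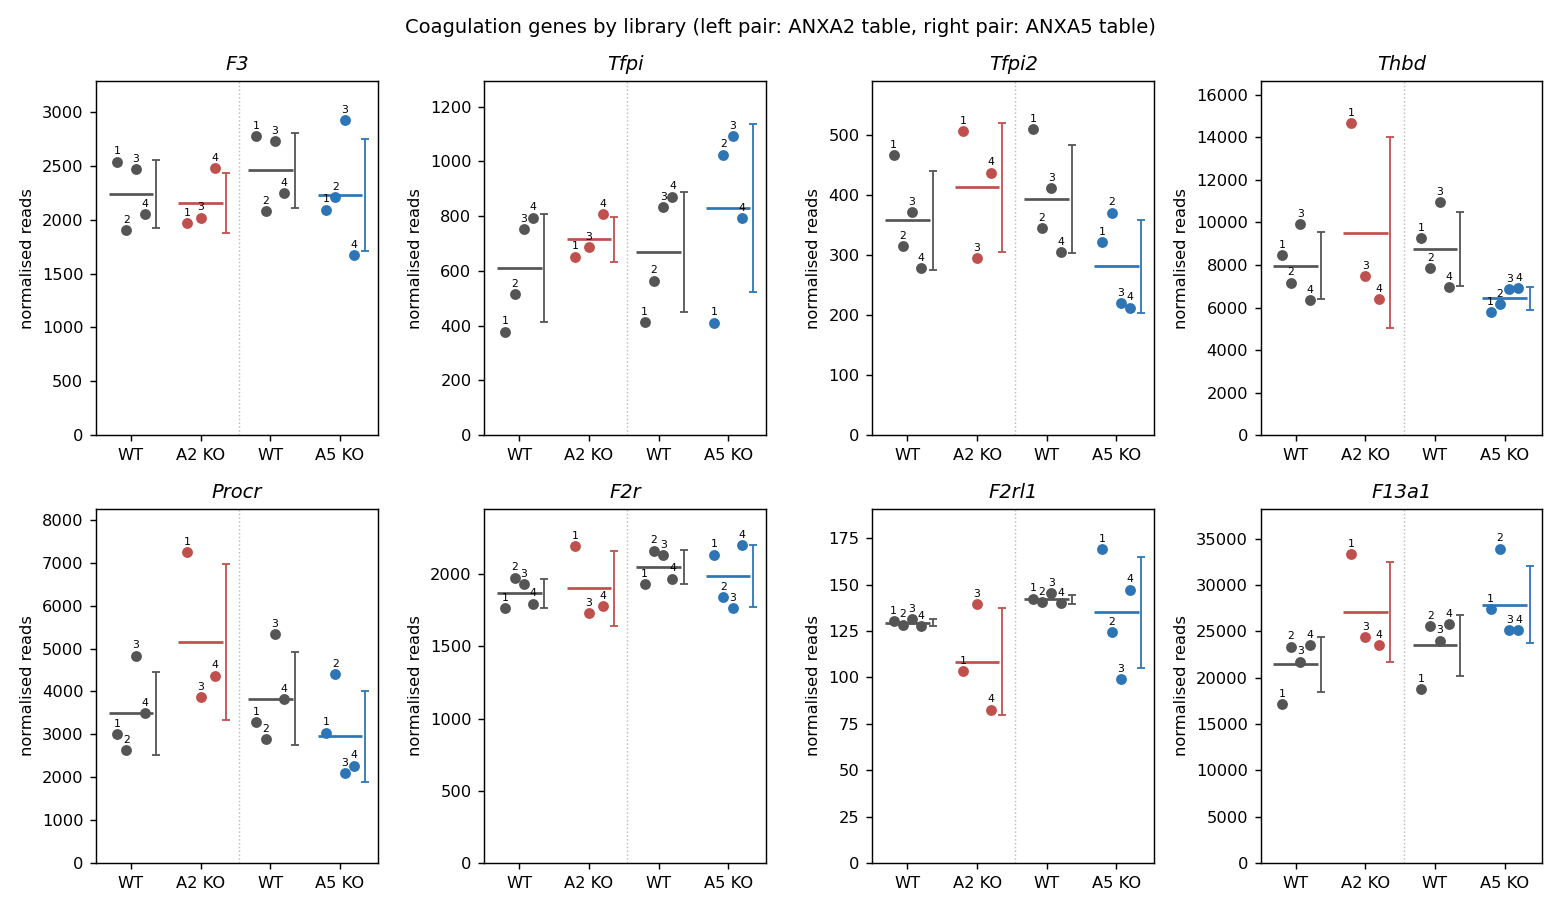
Normalised reads of each of the 8 genes (vertical axes start at 0), 1 numbered point per library, wild type (WT) beside the knockout (KO) of the same deposited table, with the group mean as a line and the SD as an error bar. Thbd in the ANXA5 knockout lies below every wild type library, F13a1 in the ANXA2 knockout lies above every one, and the groups of the other panels overlap.

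Tissue factor RNA did not pass the test in either knockout, and its groups overlapped in both. F3 (ENSMUSG00000028128.14, chromosome 3) had 2537, 1900.0, 2468 and 2049 normalised reads in wild type libraries 1 to 4 and 1968, 2019 and 2477 in ANXA2 knockout libraries 1, 3 and 4. All 3 knockout values lay inside the wild type range, and the log2 fold change was -0.052 (95% interval -0.37 to 0.26, limma adjusted p = 0.925). In the ANXA5 table F3 had 2775, 2079.6, 2725 and 2247 in wild type and 2093, 2209, 2925 and 1673 in knockout libraries 1 to 4. Knockout library 3 was the highest of these 8 libraries and knockout library 4 the lowest, and the log2 fold change was -0.16 (-0.53 to 0.21, limma adjusted p = 0.696).

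Tfpi, which stops tissue factor with factor Xa in a single complex, spread widely within wild type. Tfpi (ENSMUSG00000027082.16, chromosome 2) had 378, 516, 753 and 794 normalised reads in wild type and 652, 687 and 808 in the ANXA2 knockout. Wild type libraries 1 and 2, with Xist, were the low ones, and libraries 3 and 4, near 0 for Xist, the high ones. The knockout stood 0.29 above wild type on the log2 scale (-0.28 to 0.85, limma adjusted p = 0.726), and leaving out wild type library 1 gave 0.077, whereas leaving out wild type library 4 gave 0.43. With Xist as a covariate it was 0.48, with an adjusted p of 0.131 by limma. In the ANXA5 table wild type had 414, 564, 832 and 871, and the knockout had 411, 1025, 1093 and 793. Knockout library 1 was level with the lowest wild type library while libraries 2 and 3 were above every wild type library, and Xist was at 2.07 in library 2 and at 1676 in library 3. This knockout stood 0.28 above wild type on the log2 scale (-0.45 to 1.003, limma adjusted p = 0.739), with 0.58 when knockout library 1 was left out and 0.066 when wild type library 1 was.

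Tfpi2 (ENSMUSG00000029664.11, chromosome 6), whose product inhibits plasmin and other trypsin-like proteases, had 467, 316, 373 and 278 normalised reads in wild type and 507, 295 and 438 in the ANXA2 knockout, with overlapping groups and a log2 fold change of 0.20 (-0.32 to 0.72, limma adjusted p = 0.807). Without knockout library 1 that value was 0.031, and without knockout library 3 it was 0.42. In the ANXA5 table wild type had 511, 346, 412 and 305, and the knockout had 322, 371, 219.8 and 213. ANXA5 knockout libraries 3 and 4 were below every wild type library, and libraries 1 and 2 lay within the wild type range. The difference was -0.50 on the log2 scale, with an unadjusted interval of -0.98 to -0.01 and a limma adjusted p of 0.41.

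Relative to its inhibitors, tissue factor RNA was in excess per length in every library. The ratio of F3 to Tfpi averaged 8.78 in wild type (5.58 to 14.5), 6.501 in the ANXA2 knockout (6.35 to 6.62) and 6.506 in the ANXA5 knockout (4.56 to 11.01). Set against the sum of Tfpi and Tfpi2, the F3 ratio had a narrow range in wild type, at 2.79 (2.66 to 2.98), and its range was wider in both knockouts, at 1.90 to 2.71 and 2.18 to 3.55. The ranges overlapped between genotypes, and these ratios were not tested. RNA ratios do not give the ratio of the proteins.

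Thrombomodulin RNA was the member whose 2 groups came apart in the ANXA5 knockout. Thbd (ENSMUSG00000074743.5, chromosome 2) had 9250.0, 7854, 10975 and 6944 normalised reads in wild type and 5776, 6178, 6867 and 6919 in ANXA5 knockout libraries 1 to 4. All 4 knockout libraries lay below all 4 of the wild type, by a narrow gap between knockout library 4 and wild type library 4, and the knockout mean was 73.5% of the wild type mean. Of all 16224 genes tested, 3.36% had groups that did not overlap and were lower in this knockout. On the log2 scale the difference was -0.43 (SE 0.14, 95% interval -0.74 to -0.12), which did not pass (limma adjusted p = 0.32). In the authors' deposited table, by DESeq2, the log2 fold change of Thbd was -0.44 with an adjusted p of 0.129. With 1 library left out, the limma adjusted p ran from 0.0956 (without wild type library 4, the lowest of the wild type) to 0.602.

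In the ANXA2 knockout, the sign of the Thbd difference depended on 1 library. It had 14653, 7481 and 6401 normalised reads in libraries 1, 3 and 4, against 8458, 7175, 9937 and 6333 in wild type. Library 1 was above every wild type library and the other 2 were within the wild type range. Its log2 fold change was 0.18 (-0.46 to 0.81, limma adjusted p = 0.864), and it was -0.18 without library 1.

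Procr, the receptor that brings protein C to thrombomodulin, leaned the opposite way in the 2 knockouts without passing in either. Procr (ENSMUSG00000027611.13, chromosome 2) had 3002, 2634, 4836 and 3491 normalised reads in wild type and 7241, 3871 and 4370.0 in the ANXA2 knockout. Library 1 was again the highest, and libraries 3 and 4 lay below wild type library 3. On the log2 scale the knockout was 0.55 above wild type (-0.03 to 1.13, limma adjusted p = 0.578), and 0.27 without library 1. In the ANXA5 table wild type had 3283, 2884, 5341 and 3828, and the knockout had 3039, 4407, 2094 and 2267. ANXA5 knockout libraries 3 and 4 were below every wild type library, and the log2 fold change was -0.40 (-0.96 to 0.15, limma adjusted p = 0.536).

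Neither protease-activated receptor gene passed in either knockout. F2r (ENSMUSG00000048376.7, chromosome 13), which thrombin cleaves, had 1764, 1976, 1928 and 1796 normalised reads in wild type and 2196, 1728 and 1777 in the ANXA2 knockout. Library 1 was above and library 3 below the wild type range, and the log2 fold change was 0.019 (-0.24 to 0.28, limma adjusted p = 0.969). In the ANXA5 table F2r had 1929, 2163, 2129.8 and 1969 in wild type and 2135, 1839.8, 1764 and 2202 in the knockout, with knockout values on both sides of the wild type range and a log2 fold change of -0.049 (-0.26 to 0.16, limma adjusted p = 0.841).

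F2rl1 (ENSMUSG00000021678.10, chromosome 13), cleaved by trypsin-like proteases and by factor Xa, was even across wild type and scattered in both knockouts. It had 130.3, 128, 132 and 128 normalised reads in wild type and 103, 139.5 and 82.7 in the ANXA2 knockout. Knockout libraries 1 and 4 were below and library 3 was above all wild type libraries, and the log2 fold change was -0.29 (-0.73 to 0.16, limma adjusted p = 0.657). The ANXA5 table gave 143, 141, 145 and 139.9 in wild type and 169, 124, 99.1 and 147 in the knockout, again on both sides of wild type. Its log2 fold change was -0.10 (-0.48 to 0.28, limma adjusted p = 0.822).

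F13a1 (ENSMUSG00000039109.18, chromosome 13) was the member whose groups came apart in the ANXA2 knockout. It had 17107, 23326, 21719 and 23478 normalised reads in wild type and 33330.2, 24367 and 23507 in ANXA2 knockout libraries 1, 3 and 4. All 3 knockout libraries lay above all 4 of the wild type, but library 4 exceeded the highest of these by little. Of the 16123 genes tested, 4.56% had groups that did not overlap and were higher in this knockout. The difference on the log2 scale was 0.33 (SE 0.18, 95% interval -0.08 to 0.74; limma adjusted p = 0.604), and 0.17 without library 1. In the ANXA5 table F13a1 had 18709.8, 25532, 23988 and 25745 in wild type and 27348, 33899, 25148 and 25093 in the knockout. ANXA5 knockout libraries 1 and 2 were above every wild type library and libraries 3 and 4 were not, with a log2 fold change of 0.25 (-0.08 to 0.57, limma adjusted p = 0.517).

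**Figure D3:**
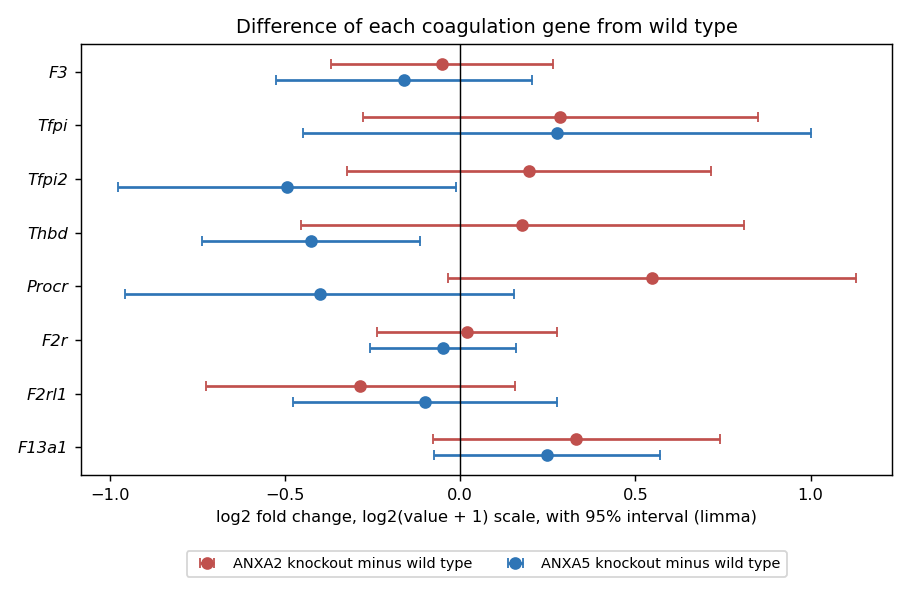
Log2 fold change of each gene with its 95% confidence interval, for the ANXA2 and the ANXA5 knockout against wild type (limma). The intervals of Thbd and Tfpi2 in the ANXA5 knockout end below 0, and those of the other values include 0.

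Across the set, 0 of 8 members passed in the ANXA2 knockout by limma, where 0.112% of the 16123 genes tested did, and 0 had an unadjusted p under 0.05, against 8.69% of all genes. Of the 8 members, 6 had a fold change above 0, with a median of 0.19 on the log2 scale, beside 0.023 over all genes tested. In the ANXA5 knockout 0 of 8 passed by limma, where 0.0308% of 16224 genes did, and 2 members, Thbd and Tfpi2, had an unadjusted p under 0.05, against 11.9% of all genes. Here 2 of 8 lay above 0, with a median of -0.13 beside 0.011 over all genes. Both comparisons use the same wild type libraries. In the edgeR and DESeq2 fits 0 of 8 passed as well, where 0.13% and 0.645% of genes did for the ANXA2 knockout and 0.0308% and 1.89% for the ANXA5 knockout. In the authors' deposited table the lowest adjusted p of a member was 0.538 for the ANXA2 knockout (Procr) and 0.129 for the ANXA5 knockout (Thbd).

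The 2 knockouts were then set against each other in 1 edgeR fit of all 11 libraries. Procr differed by 0.93 on the log2 scale, higher in the ANXA2 knockout, and did not pass (edgeR adjusted p = 0.218). Thbd differed by 0.68 (edgeR adjusted p = 0.267) and Tfpi2 by 0.67 (edgeR adjusted p = 0.275), both also higher in the ANXA2 knockout. Thbd ran from 65.3 to 149 RPKM in the ANXA2 and from 54.1 to 64.7 RPKM in the ANXA5 knockout, so its groups were separate, by a small gap, as were those of 6.07% of genes in that direction. Procr, from 72.0 to 135 against 36.2 to 75.6 RPKM, and Tfpi2, from 6.38 to 10.99 against 4.18 to 7.41 RPKM, overlapped. The differences of F3, Tfpi, F2r, F2rl1 and F13a1 lay between -0.19 and 0.077. In all, 0 of 8 members passed by edgeR, beside 0.262% of the 16791 genes tested, and 3 (Procr, Thbd and Tfpi2) had an unadjusted p under 0.05, beside 13.9% of them. Without ANXA2 knockout library 1 the differences of Procr and Thbd were 0.61 and 0.24, and by DESeq2 on all libraries the adjusted p of Procr was 0.0625.

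**Figure D4:**
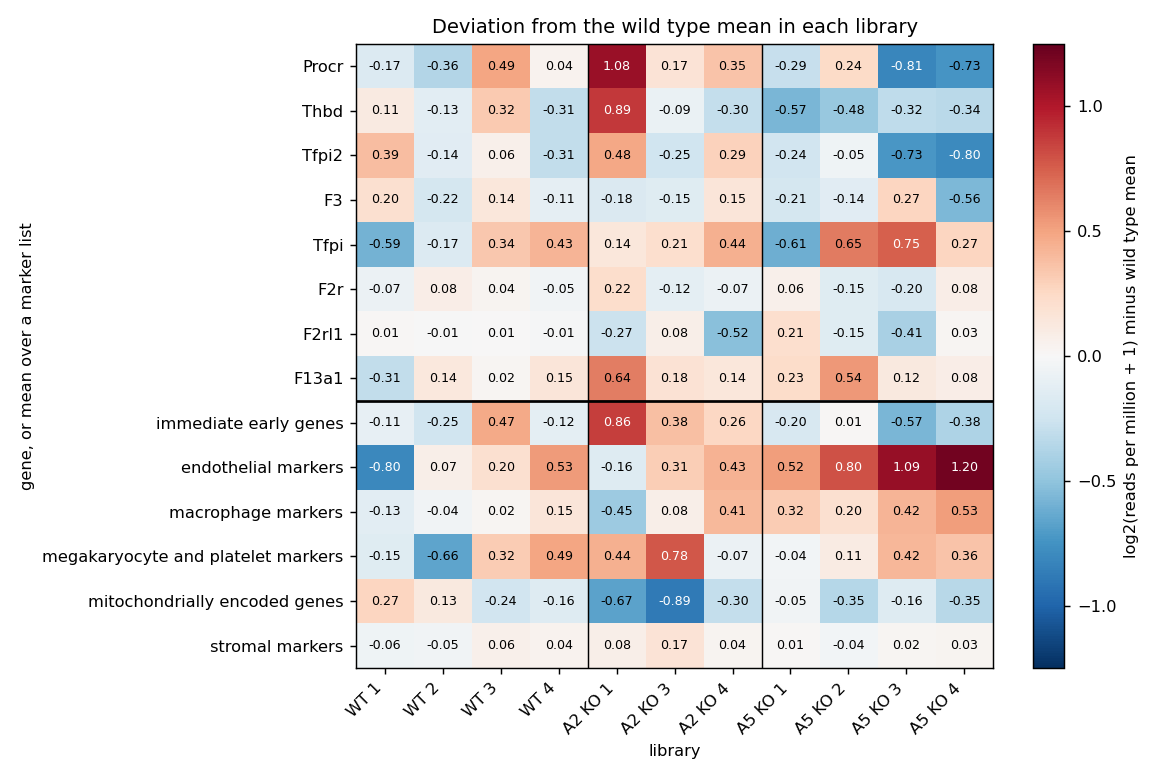
Log2 level (reads scaled to library size, plus 1) of each gene, and the mean of each marker list, minus the wild type mean (colour and printed number) in each of the 11 libraries, from reads on 1 common scale. ANXA2 knockout library 1 stands out for Procr (1.08) and Thbd (0.89), and Thbd is below 0 in all 4 ANXA5 knockout libraries.

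Immediate early genes were high or low in some of the same libraries as Procr, in wild type as in the knockouts. On the scale of the plot of library levels, Procr was at 1.08, 0.17 and 0.35 in the ANXA2 knockout and at -0.29, 0.24, -0.81 and -0.73 in the ANXA5 knockout. The mean of 19 immediate early genes, which cells switch on within minutes of a stimulus or of handling, was at 0.86, 0.38 and 0.26 and at -0.20, 0.014, -0.57 and -0.38 in the same libraries. In wild type libraries 1 to 4 Procr was at -0.17, -0.36, 0.49 and 0.043. The immediate early mean there was at -0.11, -0.25, 0.47 and -0.12. Library 1 of the ANXA2 knockout was the highest for both and library 3 of the ANXA5 knockout the lowest. All 19 of these genes had a fold change above 0 in the ANXA2 knockout, with a median of 0.38, and 2 of 19 did in the ANXA5 knockout, with a median of -0.27. In the ANXA2 knockout 5 had an unadjusted p under 0.05, beside 8.69% of all genes, and 4 did in the ANXA5 knockout, beside 11.9%. Of these 19 genes 0 passed by limma in either knockout. Their part in the values of Procr, Thbd and Tfpi2 was not tested. The 10 mitochondrially encoded genes tested had a median of -0.71 on the log2 scale in the ANXA2 knockout, where 0 of 10 lay above 0. Of these 10, 9 had an unadjusted p under 0.05, beside 8.69% of all genes, and 0 passed by limma.

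Thbd and Procr are best known from endothelium. In the ANXA5 knockout the median of the 12 endothelial markers was 1.18 on the log2 scale, 11 of 12 lay above 0, and 7 of 12 were higher in groups that did not overlap, beside 3.01% of all genes. Their summed level was 6755 to 10831 normalised reads in that knockout and 4978 to 7309 in wild type, and these ranges overlap. Tek, an endothelial receptor of the list, averaged 1734 in that knockout and 2481 in wild type. Among the 4 ANXA5 knockout libraries, library 1 had the lowest mean over the list (log2 level 0.52 above the wild type mean) and the lowest Thbd (-0.57). Libraries 3 and 4 of that knockout had the highest means over the list (1.09 and 1.20) and the lowest Procr (-0.81 and -0.73). Library 1 of the ANXA2 knockout had the lowest list mean of its group (-0.16) and the highest Thbd and Procr (0.89 and 1.08). In the ANXA2 table the sum was 5046 to 6760 in the knockout and 4552 to 6666 in wild type. F13a1 is also a gene of macrophages and megakaryocytes. The summed level of the 12 macrophage markers was 76562 to 148999 in the ANXA2 knockout and 73096 to 112206 in wild type, with 6 of 12 above 0. Most of that sum was Lyz2, the lysozyme gene, at 60494 to 128940 in the knockout and 60108 to 96326 in wild type. Relative to the wild type mean, the mean log2 level over the 12 was lowest (-0.45) in ANXA2 knockout library 1, the highest library for F13a1. In the same knockout the 8 megakaryocyte markers were all above 0, with a median of 0.53. Their summed level was 2414 to 4055 in that knockout and 1611 to 3345 in wild type, and these ranges overlap. The ANXA5 knockout had 6 of these 8 markers above 0, with a median of 0.31. In the ANXA5 knockout the macrophage sum was 113277 to 141631 against 79942 to 123039 in wild type, with 12 of 12 markers above 0 and a median of 0.42. None of these defining markers was at 0 in any library, and none passed by limma. At an unadjusted p under 0.05 there were 0 endothelial, 1 macrophage and 0 megakaryocyte markers in the ANXA2 knockout, beside 8.69% of all genes. In the ANXA5 knockout there were 9 of 12, 9 of 12 and 2 of 8 of these markers, beside 11.9% of all genes. Their part in the members' values was not tested.

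Among the 28 pairs of members, the closest relation over the 11 libraries was that of Tfpi2 with Procr. Pearson's r was 0.79 (permutation p = 0.0038, adjusted 0.108) and Spearman's rho 0.73 (permutation p = 0.0149, adjusted 0.235), with r at 0.61 without ANXA5 knockout library 4 and ANXA2 knockout library 1, the 2 farthest from the median of Tfpi2, and at 0.66 within genotypes. Thbd and Procr had an r of 0.68 (permutation p = 0.022, adjusted 0.307) and a rho of 0.55 (permutation p = 0.0824, adjusted 0.384). That relation rested on ANXA2 knockout library 1 and wild type library 3, without which r was 0.044. F3 and Tfpi, the starter and its inhibitor, had an r of 0.15 (permutation p = 0.654, adjusted 0.80) and a rho of 0.49 (permutation p = 0.13, adjusted 0.454). Some other pairs ran in opposite directions. F3 and F2r had an r of -0.54 (permutation p = 0.0869, adjusted 0.405) and a rho of -0.70 (permutation p = 0.0200, adjusted 0.234). Tfpi and F2rl1 had an r of -0.61 (permutation p = 0.0408, adjusted 0.307) and a rho of -0.68 (permutation p = 0.0251, adjusted 0.234). Without the 2 libraries farthest from the median of F3 and of Tfpi, r was -0.33 and -0.48. No pair passed after adjustment over the 28.

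The genes whose profile over the 11 libraries was most like that of a member, out of 9614 at 10 CPM (counts scaled to library size) or more on average, are given as a description. For Procr they were Bag3 (r = 0.979), a co-chaperone, and Myc (r = 0.976), the growth transcription factor, which is also on the list of immediate early genes. For Tfpi2 they were Ptgs2 (0.949), the inducible cyclooxygenase, and Tac1 (0.918), the substance P precursor. Thbd ran closest to Dab2 (0.960), an endocytic adaptor, and Cttnbp2nl (0.957). F13a1 was closest to Ehd3 (0.923) and Cdyl (0.877), F3 to Mmp23 (0.898) and Pou3f1 (0.863), and Tfpi to Stab2 (0.892), a scavenger receptor of sinusoidal endothelium, and Lyar (0.871). F2r was closest to Pgam5 (0.923) and Arrdc3 (0.870), and F2rl1 to Tbc1d20 and Med22 (both 0.879). The highest values over so many genes and 11 libraries are large by selection.

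The wider clotting system was represented by 66 listed genes in 6 groups, of which 48 were tested in each comparison. In the ANXA2 knockout 0 of 48 passed by limma, beside 0.112% of all genes. An unadjusted p under 0.05 was found for 1 of 48, which is 2.08% beside 8.69% of all genes. This was Plaur, the urokinase receptor. It had 8808 ± 1084 normalised reads in wild type and 11429 ± 454 in the knockout (SD, n = 4 and 3). Its groups did not overlap, and 4.56% of all genes were higher in this knockout without overlap. The log2 fold change was 0.38, with a limma adjusted p of 0.523. The median of the 48 was 0.10, beside 0.023 over all genes tested.

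In the ANXA5 knockout 0 of 48 passed by limma, beside 0.0308% of all genes. An unadjusted p under 0.05 was found for 13, 4 higher and 9 lower, which is 27.1% beside 11.9% of all genes. Groups did not overlap for 2 of 48 that were higher and 6 that were lower, beside 3.01% and 3.36% of all genes. The lists were chosen with earlier results of these data known, so these shares are a description and not a test of the clotting system. Over the 9 other anticoagulant genes tested the median was -0.26 on the log2 scale, and 1 of 9 lay above 0. Pros1, the protein S gene whose product assists activated protein C, was at 6971 ± 670.4 in wild type and 5966 ± 261 in the knockout (SD, n = 4 each), with groups that did not overlap (log2 -0.22, limma adjusted p = 0.377). Over the 13 genes tested for carriers and synthesis of heparan sulfate, the surface sugar that activates antithrombin, the median was -0.086 on the log2 scale and 5 of 13 lay above 0. The 2 with the smallest p were Sdc2 and Gpc4. Sdc2, a syndecan, was at 21414 ± 3979 in wild type and 14454 ± 617 in the knockout (log2 -0.55, limma adjusted p = 0.23), and Gpc4, a glypican, at 2615 ± 500.3 and 1786 ± 143 (log2 -0.53, limma adjusted p = 0.23). In the list of clotting factors and fibrinogen, the 2 with the smallest p were F10 and Kng1. F10, the factor X gene, was at 426 ± 46.4 in wild type and 698 ± 123 in the knockout, without overlap (log2 0.70, limma adjusted p = 0.217). Kng1, the kininogen gene, was at 56.6 ± 24.7 and 147 ± 52.2 (log2 1.42, limma adjusted p = 0.278). By DESeq2, which called 282 genes here where limma called 5, F10, Sdc2, Gpc4, Kng1 and Aifm2 passed, with adjusted p of 0.00149, 0.00881, 0.0206, 0.0206 and 0.0176. In simulated tables of this layout, with 100 genes changed 2-fold and 100 changed 4-fold, DESeq2 made 23 false calls and limma 11. How many genes truly changed in the real libraries is not known, so these counts do not say which calls are false.

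Other genes named by the same rule did not pass by limma in either comparison. In the ANXA2 knockout the log2 fold changes were 0.91 for Kng1, 0.56 for Vwf, the von Willebrand factor gene, -0.44 for Serpinc1, the antithrombin gene, and -0.18 for Serping1. F2rl2, the PAR3 gene, was at 0.56 there and at 0.55 in the ANXA5 knockout. The vitamin K cycle gene Vkorc1 was at 0.16, the syndecans Sdc3 and Sdc4 at 0.53 and 0.31, and the factor XIII relatives and substrates Tgm2 and Col1a1 at 0.26 and 0.73. In the ANXA5 knockout the values were -0.24 for Anxa4, 0.38 for Plaur, -0.31 for Aifm2, -0.19 for Ggcx, the carboxylase of vitamin K-dependent clotting factors, 0.47 for Tgm1 and 0.59 for Col1a1.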

How the data were processed

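RNA of untreated bone marrow stromal cells was sequenced in 11 libraries. Per the submitters' processing notes, Trim Galore, STAR, HTSeq, DESeq2 and GRCm39 were used (versions: not given in the sources used here). The signal in each table the authors deposited was a read count scaled by DESeq2 size factors; undoing the scaling gave whole reads in 100% of values within 0.001. The deposited log2 fold changes and p-values are the authors' DESeq2 output, printed where named; the deposited score, a Wald statistic per the file headers, was not used.

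Both tables were fitted separately with limma-trend 3.58.1 on log2 (value + 1), so a fold change understates that of low genes, over genes at 10 or more in 3 (ANXA2 table) or 4 (ANXA5 table) libraries, two-sided, with Benjamini-Hochberg adjustment over all genes and a threshold of 0.05. Knockouts were compared with edgeR 4.0.16 on recovered reads of the 18712 shared genes (wild type reads were equal in 100%), in R 4.3.3; DESeq2 1.42.0 was an alternative. Exon lengths came from GENCODE vM21 on GRCm38 (99.6% matched), not the submitters' build. Named genes were all members, the 2 smallest p per list, and the 2 most alike profiles. Members and lists were chosen with earlier results of these data known. In simulated tables limma found 72% (ANXA2 layout, 16163 genes) and 85% (ANXA5 layout, 16263 genes) of 2-fold changes, and edgeR 85% in the joint layout (16764 genes). DESeq2 found 88%, 92% and 92% in these 3 layouts. Its false calls were 51, 23 and 35, where limma made 15 and 11 and edgeR made 4. The changed genes, 100 at 2-fold and 100 at 4-fold in each layout, were drawn only from genes above a minimum of reads. The shares found therefore do not cover genes with fewer reads. Values of 0 stood only in wild type library 4 of the ANXA2 table (188 genes) and wild type library 3 of the ANXA5 table (412), so genes without reads in any other library were absent from these tables. The values of 1 named gene are not reported here.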

Additional observations from a re-analysis of the deposited data

How the results depend on the processing

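No member passed under the alternatives run. Against wild type these were edgeR, DESeq2, limma-voom, TMM scaling, another pseudocount (0.5 or 5), no filter or a minimum of 50, a minimum fold change, Xist as a covariate and, for the ANXA5 knockout alone, the replicate block. Between knockouts they were DESeq2, limma-trend and no filter, and in all 3 comparisons each library was also left out. The lowest adjusted p of a member was 0.131 for the ANXA2 knockout (Tfpi, Xist covariate), 0.0956 for the ANXA5 knockout (Thbd, without wild type library 4) and 0.0625 between knockouts (Procr, DESeq2). All 176 member values under the other settings kept their sign; with a library left out 195 did and 13 did not. The values of these genes then ranged for the ANXA2 knockout from -0.157 to 0.0115 (F3), -0.18 to 0.41 (Thbd) and -0.0891 to 0.0837 (F2r), for the ANXA5 knockout from -0.101 to 0.00513 (F2r) and -0.218 to 0.0375 (F2rl1), and between knockouts from -0.0526 to 0.126 (F2r), -0.0937 to 0.185 (F13a1), -0.0494 to 0.237 (F3) and -0.317 to 0.0728 (Tfpi). Without sign changes, other ranges were 0.0766 to 0.433 (Tfpi), 0.0311 to 0.42 (Tfpi2), 0.275 to 0.727 (Procr), 0.172 to 0.424 (F13a1) and -0.481 to -0.107 (F2rl1) for the ANXA2 knockout, and -0.302 to -0.0334 (F3), 0.0659 to 0.582 (Tfpi), -0.642 to -0.361 (Tfpi2), -0.531 to -0.311 (Thbd), -0.615 to -0.229 (Procr) and 0.141 to 0.295 (F13a1) for the ANXA5 knockout. Between knockouts they were 0.607 to 1.18 (Procr), 0.236 to 0.902 (Thbd), 0.507 to 0.871 (Tfpi2) and -0.413 to -0.0326 (F2rl1). Genes called in all were 18 in the ANXA2 knockout (104 by DESeq2, 284 with the Xist covariate, 8 to 16 without 1 library) and 5 in the ANXA5 knockout (282 by DESeq2, 8 with the replicate block, 4 to 32 without 1 library, the 32 without wild type library 4). Other coagulation genes called went from 0 to 1 with the Xist covariate in the ANXA2 knockout (Gpc1, log2 0.66, adjusted p = 0.0322 by limma) and to 5 by DESeq2 in the ANXA5 knockout. The cause was not tested. The labels do not say whether ANXA5 knockout and wild type libraries of the same number were paired. Deviations of same-numbered libraries from their group means correlated at 0.0494, -0.0745, -0.252 and 0.067. Those of libraries with different numbers correlated at -0.145 to 0.247. With so few libraries these values cannot decide whether the libraries were paired. For the ANXA2 knockout no replicate block was fitted, because its columns carry numbers other than those of the titles. In simulated tables part of the 2-fold changes were missed with 3 or 4 libraries a group. F2rl1, at 81 to 205 reads per library, is the member that depth limits most.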

Other observations

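F2rl1 was more even across the wild type libraries than counting error alone gives on average. It had 113 to 155 reads in them, for which counting gives a coefficient of variation of 8.74%, and the normalised values varied by 1.39% in the ANXA2 table and 1.70% in the ANXA5 table. In the knockouts the coefficient of variation was 26.5% (ANXA2) and 22.3% (ANXA5), where counting gives 9.48% and 8.10%. This contrast was noticed in the data and was not tested, and with 4 wild type libraries the estimate of the spread is imprecise.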
